A study of Homo sapiens with 9 samples.

Results

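The nuclear genes of respiratory complex I were followed here by a list of 41 symbols, 34 subunit genes with names beginning NDUFA, NDUFB, NDUFC, NDUFS or NDUFV and 7 assembly factor genes, NDUFAF1 to NDUFAF7. Each symbol was matched to its NCBI Gene ID, and all 41 were found among the 28395 genes of the count files. The list does not hold every nuclear gene of the complex, and its members lie on 20 chromosomes. The choice of members used no measured value of these libraries, but the list was drawn up with earlier results of the same data known.

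Complex I takes electrons from NADH in the mitochondrial matrix, passes them along a chain of flavin and iron-sulfur clusters in its peripheral arm to ubiquinone, and pumps protons through its membrane arm. The catalytic core is shared with bacteria, the accessory subunits around it are nuclear, and the hydrophobic core subunits of the membrane arm, the ND proteins, are encoded in mitochondrial DNA. Assembly factors help to join the modules and are absent from the finished enzyme. In enterocytes, oxidative phosphorylation supplies ATP for the transport of nutrients and ions.

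Differentiated Caco-2 cells, an established human colon carcinoma line labelled wild type that forms an enterocyte-like layer, were exposed for 24 h to 10 µM carmine, to 20 µM carminic acid or, as control, to culture medium alone. Carminic acid is a red anthraquinone from cochineal insects, and carmine is the complex it forms with aluminium; here their concentrations differed as well. Total RNA of 3 samples per group, lettered A to C, was sequenced, and levels are CPM, read counts scaled to library size with TMM factors, unless another scale is named. Whether the triplicates are independent cultures is not stated, so a p-value here reflects the spread of these samples alone, possibly a technical one, and in bulk RNA fewer expressing cells and less RNA per cell cannot be told apart.

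Total counts per library ran from 54871018 to 57581301, and 16017 genes, 39 of the 41 members among them, had enough counts to be tested. Carmine library C stood apart on the first principal component, which held 20.9% of the variance, at 34.5 against -19.4 to 14.5 for the other 8 libraries. Counts, medians and most named members of carmine against control are therefore also given without it. Enterocyte-type markers (8 genes such as VIL1, CDX2 and SI) summed to 4434 to 4576 CPM in carmine libraries, 4564 to 4795 in carminic acid libraries and 4447 to 4557 in control, with the marker KRT20 at 0 in every library. Markers of other cell types were lower in sum: 98.8 to 124 CPM for fibroblasts with carmine, 107 to 137 for carminic acid and 110 to 151 in control, nearly all of it COL1A1, and at most 12.7, 12.5 and 10.99 CPM for endothelium, 0.356, 0.526 and 0.609 CPM for immune cells, and 26.0, 16.3 and 18.9 CPM for goblet cells, for carmine, carminic acid and control.

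Because the members share a place in 1 enzyme, their promoters were read for the motifs of regulators known for respiratory genes. The windows, from RefSeq on GRCh38.p14, run from 250 bases before to 50 bases after the annotated start and were held for 36 of the 41 members. No window was held for NDUFB5, NDUFB9, NDUFC2, NDUFS5 and NDUFAF6, so these genes were not searched. The 5 windows below are those of 4 genes with small p-values for carmine against control, NDUFS6 (chr5:1801157-1801456, plus strand), NDUFB10 (chr16:1959288-1959587, plus strand), NDUFA5 (chr7:123557769-123558068, minus strand, 1 of its 3 windows) and NDUFA11 (chr19:5903741-5904040, minus strand), and that of NDUFA9 (chr12:4648864-4649163, plus strand), which holds 2 motifs. Capitals mark motif matches: GCGCATGCG, a short form of the NRF1 site, in NDUFS6 and NDUFA5, the full NRF1 site in NDUFA11 and NDUFA9 (in both read on the other strand), and the YY1 form AAGATGGCG in NDUFA9. No capitals mean only that these letters are not in that window.
NDUFS6: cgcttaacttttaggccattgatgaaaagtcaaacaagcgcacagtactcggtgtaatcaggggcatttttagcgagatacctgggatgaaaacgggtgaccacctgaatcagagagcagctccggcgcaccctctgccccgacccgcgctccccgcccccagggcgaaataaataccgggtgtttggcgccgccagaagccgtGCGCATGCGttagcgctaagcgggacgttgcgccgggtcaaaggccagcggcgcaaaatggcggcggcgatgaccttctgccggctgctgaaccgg
NDUFB10: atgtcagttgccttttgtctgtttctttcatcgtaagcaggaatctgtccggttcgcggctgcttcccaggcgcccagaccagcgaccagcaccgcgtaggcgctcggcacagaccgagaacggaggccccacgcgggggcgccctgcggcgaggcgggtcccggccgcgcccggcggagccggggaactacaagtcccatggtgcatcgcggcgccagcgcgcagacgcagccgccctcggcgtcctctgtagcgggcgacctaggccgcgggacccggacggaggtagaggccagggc
NDUFA5: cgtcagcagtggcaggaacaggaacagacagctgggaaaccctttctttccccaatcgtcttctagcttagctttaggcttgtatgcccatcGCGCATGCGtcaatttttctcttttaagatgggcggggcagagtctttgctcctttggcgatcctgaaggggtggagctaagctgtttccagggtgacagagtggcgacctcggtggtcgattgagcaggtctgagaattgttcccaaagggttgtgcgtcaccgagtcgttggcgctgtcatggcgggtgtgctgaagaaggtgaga
NDUFA11: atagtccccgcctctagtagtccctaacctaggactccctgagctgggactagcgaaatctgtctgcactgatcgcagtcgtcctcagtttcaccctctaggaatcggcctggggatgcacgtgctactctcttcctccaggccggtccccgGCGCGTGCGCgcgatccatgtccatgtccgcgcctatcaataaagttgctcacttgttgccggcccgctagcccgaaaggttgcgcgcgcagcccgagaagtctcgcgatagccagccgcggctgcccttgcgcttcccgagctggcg
NDUFA9: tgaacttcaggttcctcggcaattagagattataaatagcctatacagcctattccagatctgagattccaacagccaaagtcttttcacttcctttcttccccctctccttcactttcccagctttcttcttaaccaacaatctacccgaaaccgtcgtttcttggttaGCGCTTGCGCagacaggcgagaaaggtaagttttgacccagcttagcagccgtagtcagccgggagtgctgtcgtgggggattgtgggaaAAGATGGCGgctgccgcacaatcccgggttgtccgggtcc

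Both strands were searched for 3 motifs: the full site of NRF1, a regulator of respiratory genes, AAGATGGCG for the zinc finger factor YY1, and CCGGAAG for ETS factors such as GABP. The YY1 letters occurred in 6 of 36 members (16.7%), NDUFA6, NDUFA7, NDUFA9, NDUFB8, NDUFS4 and NDUFS7, and in 3.21% of all coding genes with a window. All 6 matches lay on the strand of the gene, with the first letter 11 to 26 bases downstream of the annotated start. The NRF1 letters occurred in 7 members (19.4%, against 9.67% of coding genes), with 3 matches in NDUFB4 and 2 each in NDUFA3 and NDUFA8, and the ETS letters in 5 members (13.9%, against 16.5%). At least 1 of the 3 motifs was found in 17 members (47.2%, against 25.9%), and no match of one overlapped a match of another in a member, while the pair of NRF1 matches in NDUFA8 overlap each other. The short NRF1 form, which overlaps the full one and was added after the windows had been read, occurred in 6 members (16.7%, against 3.11%). A match is a description of the letters and was not tested as a binding site.

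Levels of the members were compared with each other only per length, as CPM per kilobase of the longest protein-coding transcript. NDUFB8, an accessory subunit at the distal end of the membrane arm, had the highest level of the members, with 186 ± 43.2 CPM per kilobase with carmine, 188 ± 9.11 in carminic acid libraries and 172 ± 8.67 in control (SD, n = 3 each). NDUFS5, on the intermembrane side of the proximal membrane arm and next in control, had 127 ± 17.2, 114 ± 11.5 and 117 ± 8.10 CPM per kilobase in the same order of groups. NDUFS8, a core subunit that carries iron-sulfur clusters, was highest in the peripheral arm, with 138 ± 30.8, 133 ± 11.9 and 115.5 ± 4.35 CPM per kilobase. NDUFS8 lay above NDUFS5 in both dye groups and just below it in control, where their SDs overlap, so that the control order of this pair lies within the spread. The acyl carrier NDUFAB1, which sits in both arms and also serves mitochondrial fatty acid synthesis, lay in the upper part of the range at 71.3 ± 8.26, 66.5 ± 1.31 and 68.4 ± 2.78 CPM per kilobase. The ranks above hold for the longest transcripts. With RefSeq-matched transcripts the core subunit NDUFV1 had 170 CPM per kilobase in control, above NDUFS8 at 115.5. With the shortest transcripts NDUFV1 had 569 in control, above both NDUFS8 (259) and NDUFB8 (182).

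At the low end stood the assembly factors, with a control median of 6.77 CPM per kilobase over 7 genes against 46.6 over the 32 tested subunit genes. NDUFAF2, a relative of the subunit NDUFA12 that stands in for it during assembly, had the highest control level of the assembly factors, with 21.5 ± 2.70 CPM per kilobase with carmine, 21.8 ± 1.10 in carminic acid libraries and 25.5 ± 0.984 in control. NDUFAF5, which hydroxylates the core subunit NDUFS7, had the lowest of all tested members, with 0.805 ± 0.172, 0.802 ± 0.0196 and 0.827 ± 0.0798 CPM per kilobase. The lowest subunit in each arm was NDUFV3 in the peripheral arm (7.18 ± 0.694, 6.63 ± 0.480 and 6.26 ± 0.184 CPM per kilobase), NDUFC2 in the proximal membrane arm (14.6 ± 0.315, 12.4 ± 0.112 and 12.5 ± 0.536) and NDUFB2 in the distal membrane arm (9.39 ± 1.04, 9.43 ± 0.261 and 9.46 ± 0.263). Control medians were 49.3 CPM per kilobase for the distal arm, 44.6 for the peripheral arm and 22.7 for the proximal arm. In the same order they were 93.4, 50.3 and 68.3 with RefSeq-matched transcripts and 105, 119 and 85.9 with the shortest. The order of the arms therefore changes with the transcript chosen. So do the extremes of the groups, here in control CPM per kilobase. With RefSeq-matched transcripts NDUFA9 (13.7) lay below NDUFV3 (18.6), and NDUFB6 (17.4) below NDUFB2 (31.3). With the shortest, NDUFC1 (47.8) lay below NDUFC2 (74.3), and NDUFB6 (35.7) below NDUFB2 (37.5). Among assembly factors, the shortest transcripts put NDUFAF3 (55.0) above NDUFAF2 (39.8) and NDUFAF4 (3.04) below NDUFAF5 (4.62). These levels depend on the transcript chosen: NDUFS1 stood at 17.9 ± 0.327 CPM per kilobase in control with a transcript of 11819 bases and at 372 ± 6.79 with its shortest one, and the ratio of the subunit to the assembly factor median was 6.88 with the longest, 4.53 with the shortest and 9.50 with RefSeq-matched transcripts.

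Among the core subunits, NDUFV1, the subunit that binds NADH and flavin, had 124 ± 20.0 CPM per kilobase with carmine, 125 ± 8.68 in carminic acid libraries and 107 ± 0.760 in control. NDUFV2, which carries an iron-sulfur cluster beside it, had 114 ± 5.85, 106 ± 2.62 and 108 ± 5.92 CPM per kilobase. By their longest transcripts, the iron-sulfur subunits NDUFS1 and NDUFS7 and the core subunit NDUFS3 lay lower in control, at 17.9 ± 0.327, 17.9 ± 1.51 and 45.7 ± 2.52 CPM per kilobase.

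Both members that could not be tested are structural subunits: NDUFA6, of the peripheral arm, had 0 counts in all 9 libraries, and NDUFA3, of the proximal membrane arm, had 0 to 24. NDUFA3 had 7, 6 and 4 counts with carmine, 4, 4 and 24 in carminic acid libraries and 8, 0 and 2 in control. Some, not all, of the genes near them were also low: SMDT1, 1242 bases from NDUFA6, had 2 counts over all libraries and TFPT, which overlaps NDUFA3, had 192. RPS9, a ribosomal protein gene 93290 bases from NDUFA3, had 165 to 1078 counts per library. The counting of reads that map to several places is not given in the labels or headers, and these counts do not show that the genes were silent.

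The first question was what carmine did to these transcripts. Carmine libraries held more nuclear complex I RNA on average, with small differences per gene that were spread over both arms: NDUFB5 of the distal arm, NDUFS6 and NDUFA5 of the peripheral arm, NDUFC2 of the proximal arm and NDUFB10 of the distal arm were higher in every carmine library than in any control library. The assembly factor NDUFAF2 and the core subunit NDUFS1 were lower in every carmine library, but the log2 fold change of NDUFS1, -0.06, was 0.06 with length and GC trends removed. The members summed to 2422, 2711 and 3043 CPM in carmine libraries A, B and C, against 2400, 2442 and 2439 in control, or 2726 ± 311 CPM with carmine and 2427 ± 23.6 CPM in control (SD, n = 3 each). Carmine library A lay inside the control range, and libraries B and C above it. Of the 39 tested members, 15 were above their control mean in carmine library A, 33 in B and 31 in C.

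**Figure D1:**
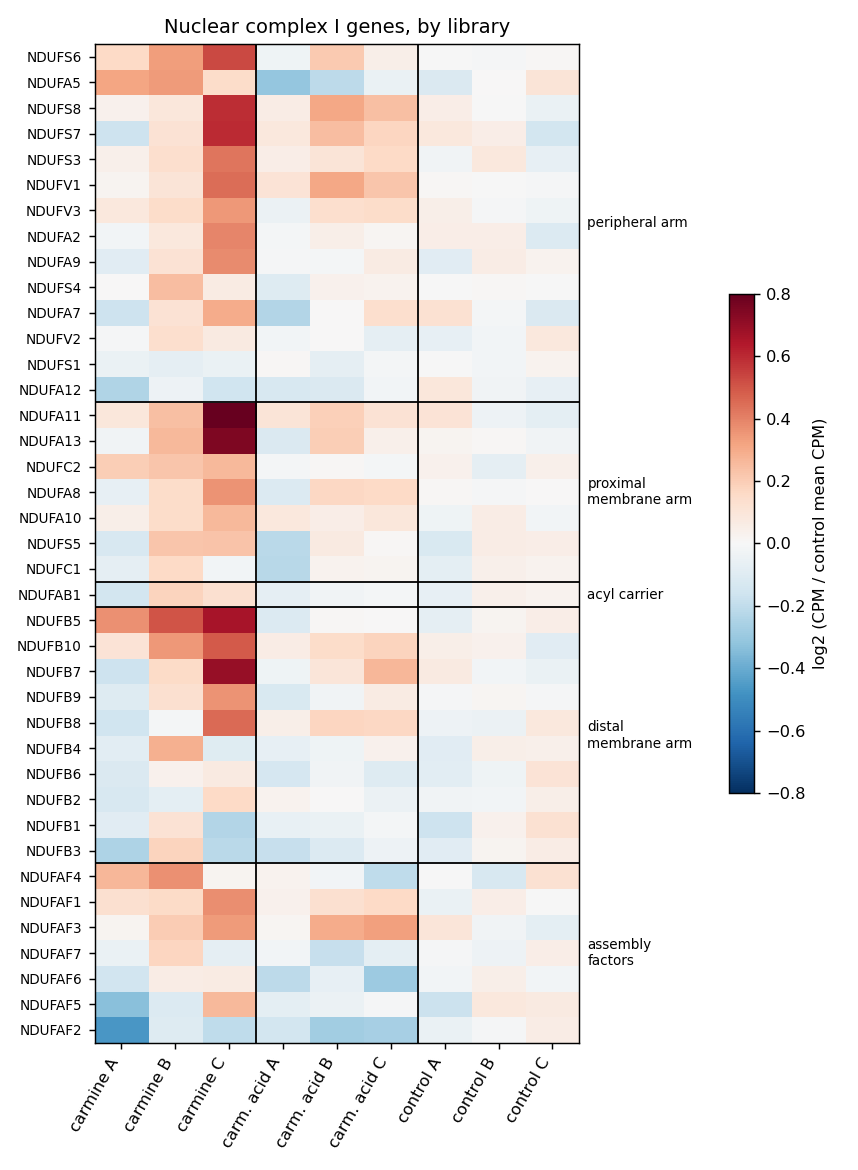
Level of each of the 39 tested members in each library as log2 of its CPM over its control mean, with carmine at the left, carminic acid in the middle and control at the right, and rows grouped by place in the complex. Red is above and blue below the control mean; carmine library C holds the deepest red (NDUFA11, NDUFA13, NDUFB7), while NDUFB5 is red in all 3 carmine libraries.

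No member passed an edgeR adjusted p of 0.05 for carmine against control, and neither did any of the 16017 genes (0.0% in each direction). DESeq2 and limma-voom each called 1 member, NDUFB5, among 75 (0.474%) and 43 (0.268%) of the genes with an adjusted p. At an unadjusted edgeR p under 0.05, 10 members were higher and 1 was lower, against a background of 5.38% of all genes higher and 5.61% lower. Without carmine library C, 7 were higher and 1 lower, against 5.86% and 6.42%. Groups did not overlap for 8 higher members (NDUFA5, NDUFB5, NDUFB10, NDUFC2, NDUFS6, NDUFV1, NDUFV3 and NDUFAF1) and 2 lower members (NDUFS1 and NDUFAF2), against 7.32% and 7.67% of all genes. Without carmine library C these counts were 9 higher, the same 8 among them, and 3 lower, against 13.9% and 14.9%. The log2 fold change was positive for 30 of 39 members (51.7% of all genes) with a median of 0.15, against 0.01 over all genes, and the median was 0.06 without carmine library C, with 28 of 39 positive (50.1% of all genes), and 0.24 without carmine library A.

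By place in the complex, 12 of 14 peripheral arm genes had a positive log2 fold change (median 0.18), all 7 of the proximal membrane arm (0.16), 6 of 10 of the distal membrane arm (0.08) and 4 of 7 assembly factors (0.02), and the acyl carrier NDUFAB1 stood at 0.06. Without carmine library C, 10 of 14 peripheral arm genes were positive (median 0.07), 7 of 7 proximal (0.10), 6 of 10 distal (0.01) and 4 of 7 assembly factors (0.07), and NDUFAB1 stood at 0.03. None of these passed the test with all libraries. Of the 6 core subunits, log2 fold changes were 0.26 for NDUFS8, 0.22 for NDUFS7, 0.21 for NDUFS3, 0.20 for NDUFV1, 0.07 for NDUFV2 and -0.06 for NDUFS1, with edgeR adjusted p-values of 0.445 to 0.724. Without carmine library C they were 0.07 for NDUFS8, -0.01 for NDUFS7, 0.095 for NDUFS3, 0.07 for NDUFV1, 0.07 for NDUFV2 and -0.06 for NDUFS1. With length and GC trends removed, NDUFS8 stood at 0.15, NDUFS3 at 0.14, NDUFV1 at 0.13 and NDUFS7 at 0.07.

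NDUFB5, at positions 179604794 to 179627647 of chromosome 3, encodes a single-span accessory subunit of the distal membrane arm. It had 169.5, 186 and 207 CPM with carmine, against 125, 133 and 136 CPM in control. All carmine libraries lay above all control libraries, with the lowest carmine value well clear of the highest control value. The log2 fold change was 0.51, with a 95% interval of 0.34 to 0.68 (SE 0.0799, edgeR adjusted p = 0.0536), the smallest p of the members. The call depends on the setting: the adjusted p was 5.20e-06 with DESeq2 and 0.0177 with limma-voom, and over all alternatives it ran up to 0.297, the edgeR value without control library A. MRPL47, a mitochondrial ribosomal protein gene that starts 148 bases from NDUFB5, had 68.9 ± 6.66 CPM with carmine and 64.6 ± 5.36 CPM in control (0.09, edgeR adjusted p = 0.702).

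NDUFB10, at positions 1959538 to 1961975 of chromosome 16, belongs to the same arm. It had 71.1, 83.7 and 92.8 CPM with carmine, against 68.2, 67.6 and 62.0 CPM in control. The carmine libraries were all higher, with library A close to control. Its log2 fold change was 0.32 (SE 0.0913, edgeR adjusted p = 0.332).

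In the peripheral arm, NDUFS6 (chromosome 5, positions 1801407 to 1816048) encodes a zinc-binding accessory subunit at the junction of the NADH-oxidising module. It had 37.1, 42.0 and 48.0 CPM with carmine, against 33.2, 33.1 and 33.5 CPM in control. The control values were almost level and every carmine value lay above them. The log2 fold change was 0.35 (SE 0.0976, edgeR adjusted p = 0.332), and its neighbour MRPL36, whose annotation overlaps it by 28 bases, stood at 0.20 (edgeR adjusted p = 0.452). NDUFA5 (chromosome 7, positions 123536997 to 123601651), an accessory subunit of the ubiquinone-reducing module, had 105, 106 and 92.9 CPM with carmine, against 77.7, 84.1 and 90.2 CPM in control. Here carmine library C was the lowest of its group and close to control library C. The log2 fold change was 0.27 (SE 0.0871, edgeR adjusted p = 0.375).

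In the proximal membrane arm, NDUFC2 (chromosome 11, positions 78068297 to 78079862) had 36.0, 36.6 and 37.6 CPM with carmine, against 32.1, 29.8 and 32.2 CPM in control. Its carmine values lay close together, and all exceeded control. The log2 fold change was 0.23 (SE 0.0737, edgeR adjusted p = 0.375).

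NDUFA11 and NDUFA13, also of the proximal arm, had larger fold changes that came mostly from 1 library. NDUFA11 (chromosome 19, positions 5891229 to 5903790) had 49.2, 54.7 and 85.4 CPM with carmine, against 49.95, 45.0 and 43.9 CPM in control, a log2 fold change of 0.45 (SE 0.163, edgeR adjusted p = 0.394). NDUFA13 (chromosome 19, positions 19516225 to 19528198), also known as the cell death regulator GRIM-19, had 66.4, 81.0 and 113 CPM with carmine, against 68.6, 68.0 and 66.3 CPM in control (0.36, SE 0.155, edgeR adjusted p = 0.445). For both, carmine library C was far above the rest and library A was within or next to the control values. Without carmine library C the log2 fold changes were 0.17 for NDUFA11 and 0.13 for NDUFA13.

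NDUFAF2 (chromosome 5, positions 60945205 to 61153026) was the member lower with carmine with the smallest p. It had 13.3, 17.1 and 15.9 CPM with carmine, against 17.7, 18.2 and 19.1 CPM in control. All carmine values were below all control values, with library A lowest. The log2 fold change was -0.25 (SE 0.100, edgeR adjusted p = 0.417), and NDUFA12, the subunit related to it, stood at -0.14 (edgeR adjusted p = 0.516). Without carmine library C, the log2 fold changes were 0.44 for NDUFB5, which then passed among 0.221% of genes (edgeR adjusted p = 0.00594), 0.25 for NDUFS6, 0.24 for NDUFB10, 0.33 for NDUFA5, 0.22 for NDUFC2 and -0.27 for NDUFAF2, with edgeR adjusted p-values of 0.0741 to 0.281 for the last 5. Without carmine library A, the lowest for NDUFAF2, its log2 fold change was -0.15 (edgeR adjusted p = 0.407). The assembly factors NDUFAF3 and NDUFAF4, which act together on the ubiquinone-reducing module, stood at 0.19 and 0.22, and at 0.12 and 0.32 without carmine library C.

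**Figure D2:**
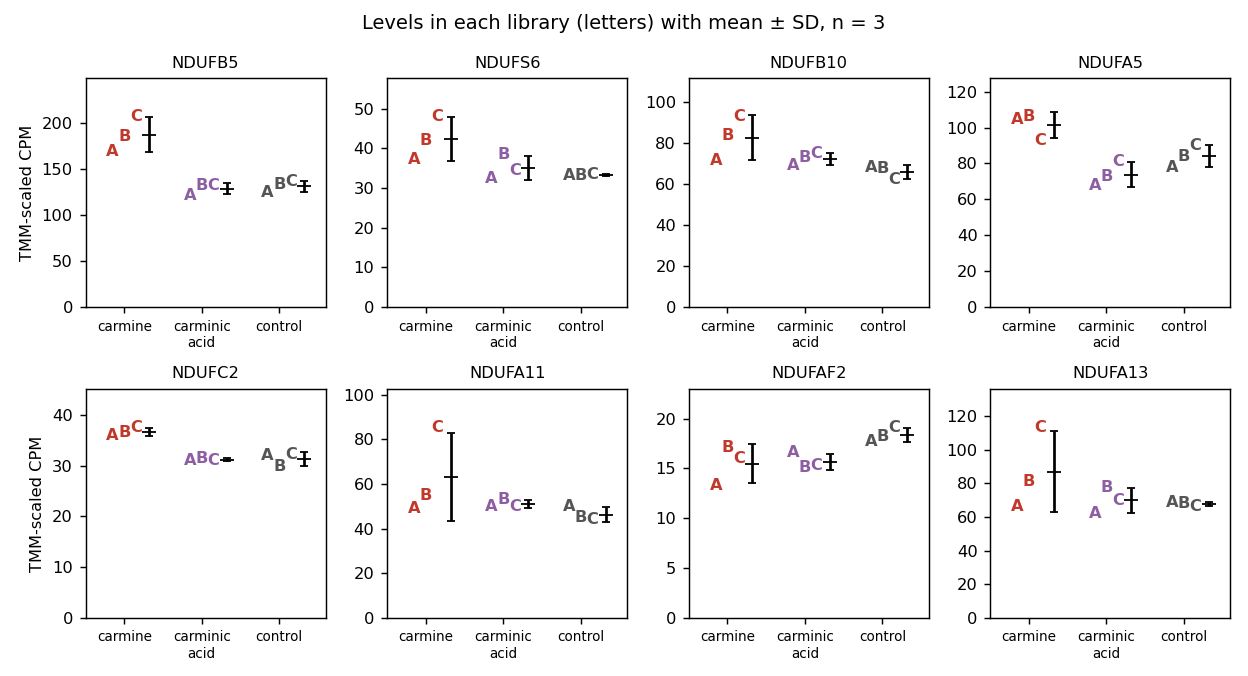
CPM of the 8 members with the smallest p for carmine against control, with each library drawn as its letter and the mean ± SD (n = 3) beside it, carmine at the left, carminic acid in the middle and control at the right; each axis starts at 0. NDUFB5, NDUFA5 and NDUFC2 are higher in all carmine libraries than in all others, while NDUFA11 and NDUFA13 stand out in carmine library C alone.

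Base composition and length were read beside these fold changes. Across the 39 members the log2 fold changes for carmine had a Spearman correlation of 0.38 with GC content, as a description of genes that share libraries. In carmine library C, the more GC-rich members had a median log2 level of 0.41 above the control mean and the others 0.07. The more GC-rich were those at or above the members' median by the longest transcript. All other GC and length values here are of RefSeq-matched transcripts. Across 13903 genes of carmine library C the log2 level followed GC content (Spearman 0.52) and transcript length (-0.40), and genes are not independent replicates. The correlation with GC content was -0.25 and -0.22 in carmine libraries A and B, 0.34 to 0.61 in carminic acid libraries and -0.49 to 0.41 in control libraries. The members' transcripts were short, with a median of 930 bases against 2976 over those genes, while their GC content was near that of all genes, at 48.7% against 49.9%. With the length and GC trends of each library removed, the median of the members was 0.07 and 29 of 39 were positive. NDUFB5 (log2 fold change 0.46, edgeR adjusted p = 0.0185), NDUFB10 (0.25, edgeR adjusted p = 0.0313) and NDUFS6 (0.28, edgeR adjusted p = 0.0398) then passed, among 164 genes (1.18%).

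That correction used RefSeq-matched transcript lengths. With the longest transcripts, an alternative chosen after seeing the data, NDUFB10 (edgeR adjusted p = 0.0259) and NDUFS6 (edgeR adjusted p = 0.0422) passed and NDUFB5 did not (0.54, edgeR adjusted p = 0.0890), with 110 genes called (0.783%).

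**Figure D3:**
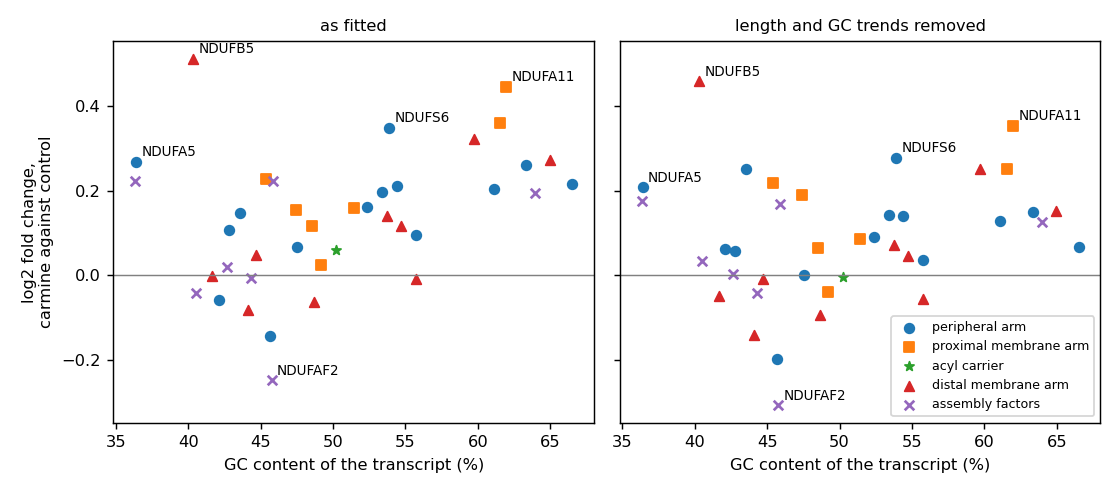
Log2 fold change of each tested member for carmine against control by the GC content of its RefSeq-matched transcript, as fitted at the left and with the length and GC trends of each library removed at the right; symbols mark the place in the complex. NDUFB5 stays highest in both panels, at 0.51 and 0.46, while GC-rich members such as NDUFA11 move down, to 0.35 from 0.45.

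Other genes of the pathway give the setting, none of which passed the test with all libraries. The 7 ND genes of mitochondrial DNA, which encode the membrane core of the same enzyme, summed to 3804, 3786 and 3234 CPM with carmine, against 5723, 7292 and 7443 CPM in control, with all carmine libraries below control. The log2 fold change was negative for all 7, the median being -0.83, and -0.80 without carmine library C. ND5 had 561, 476 and 492 CPM with carmine, against 838, 929 and 943 CPM in control (-0.83, SE 0.141, edgeR adjusted p = 0.100), and ND1 had 692, 732 and 678 CPM with carmine, against 1261, 1380 and 1493 CPM in control (-0.98, SE 0.193, edgeR adjusted p = 0.199). So the nuclear and the mitochondrial genes of complex I lay on opposite sides of control in carmine libraries B and C, a difference that was not tested.

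Nuclear subunits of complexes II to V, 38 genes, were positive for 36 with a median of 0.14, close to that of the complex I members, and summed to 7405 ± 627 CPM with carmine, against 6671 ± 127 CPM in control (SD, n = 3 each). With carmine library C left out, 34 of the 38 were positive with a median of 0.10, against 0.06 for the complex I members. UQCRQ, of complex III, had 66.7, 71.1 and 76.9 CPM with carmine, against 56.9, 55.3 and 54.4 CPM in control (0.37, SE 0.0744, edgeR adjusted p = 0.132, and 0.32 with 0.0489 without carmine library C), and COX5A, of complex IV, stood at 0.21 (edgeR adjusted p = 0.380). The 10 complex I assembly factors of other names were positive for 7, with a median of 0.05, or for 5 with 0.02 without carmine library C. ECSIT (0.25), DMAC1 (0.18) and TIMMDC1 (0.17) were the highest of them, with edgeR adjusted p-values of 0.461, 0.506 and 0.466, and stood at 0.05, 0.14 and 0.10 without carmine library C. Of 8 tested regulators of respiratory genes, 5 were positive with a median of 0.04: the nuclear receptor gene ESRRA stood at 0.34 (edgeR adjusted p = 0.445), or 0.095 without carmine library C, and the coactivator gene PPARGC1B at -0.19 (edgeR adjusted p = 0.454). With that library left out, 6 regulators were positive with a median of 0.07, and PPARGC1B stood at -0.15. Of 5 genes for other routes of electrons to quinone, 3 were positive with a median of 0.06, with GPD2, a glycerol phosphate dehydrogenase, at -0.13 and AIFM2 at 0.08 (edgeR adjusted p-values 0.631 and 0.691). Without carmine library C, 3 were positive with a median of 0.04, and GPD2 stood at -0.03 and AIFM2 at 0.04.

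**Figure D4:**
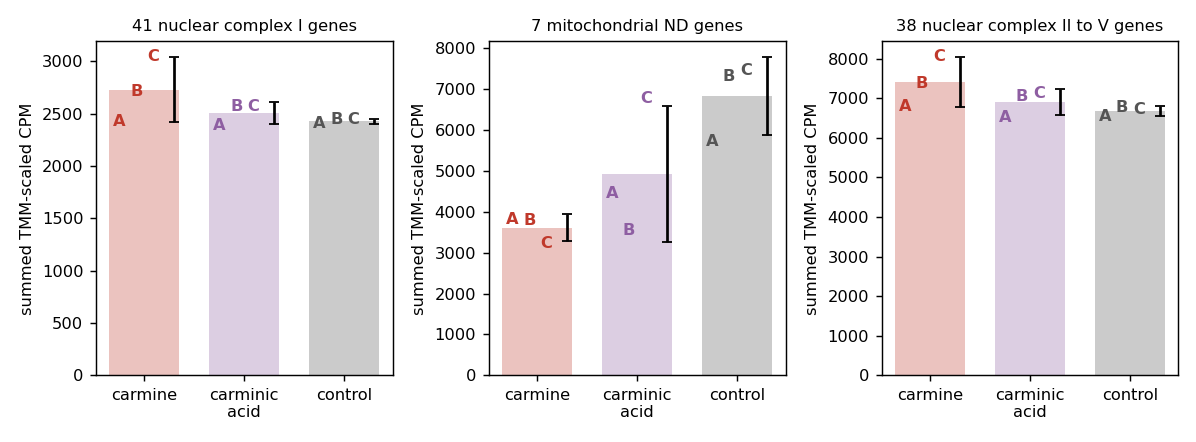
Summed CPM per library of the 41 nuclear complex I genes, the 7 mitochondrial ND genes and the 38 nuclear genes of complexes II to V, with carmine at the left, carminic acid in the middle and control at the right; bars are means from 0, black lines the SD (n = 3) and letters the libraries. The highest sum of the nuclear complex I genes is that of carmine library C, 3043 CPM, while the ND sums of carmine, 3234 to 3804 CPM, lie below all control libraries.

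Carminic acid, without aluminium and at 20 µM, was then set against the same control libraries. The members summed to 2383, 2565 and 2563 CPM with carminic acid, against 2400, 2442 and 2439 CPM in control (2504 ± 105 CPM with carminic acid and 2427 ± 23.6 CPM in control, SD, n = 3 each). Libraries B and C lay above control and library A below it. The median log2 fold change was -0.01, as for all genes, and 17 of 39 members were positive (48.1% of all genes). The core subunits NDUFV1, NDUFS8 and NDUFS7 and the distal arm subunit NDUFB10 were higher in all carminic acid libraries, and the assembly factors NDUFAF2 and NDUFAF6 were lower in all.

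No member and no gene (0.0% in each direction) passed an edgeR adjusted p of 0.05 for carminic acid against control. DESeq2 and limma-voom each called 0 members, and 0.0358% and 0.212% of the genes with an adjusted p. At an unadjusted p under 0.05, 2 members were higher and 2 lower, against 2.52% and 3.91% of all genes. The 4 higher and 2 lower members without overlap stand against 12% and 8.82% of all genes. Shares near these backgrounds are no result about the members.

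NDUFV1, on chromosome 11 at positions 67606936 to 67612554, had 292.5, 336 and 316 CPM with carminic acid, against 273, 271 and 269.6 CPM in control, a log2 fold change of 0.21 (SE 0.0963, edgeR adjusted p = 0.717). NDUFAF3, on chromosome 3 at positions 49020452 to 49023495, had 39.2, 47.7 and 48.8 CPM with carminic acid, against 41.5, 38.1 and 36.7 CPM in control (0.22, SE 0.102, edgeR adjusted p = 0.717). The first was separate from control and the second was not. NDUFAF2 had 16.6, 15.1 and 15.3 CPM with carminic acid, against 17.7, 18.2 and 19.1 CPM in control (-0.23, SE 0.101, edgeR adjusted p = 0.717), with no overlap. NDUFA5 had 67.7, 72.6 and 81.1 CPM with carminic acid, against 77.7, 84.1 and 90.2 CPM in control (-0.19, SE 0.0873, edgeR adjusted p = 0.717), with library C inside the control range.

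Across the 39 members the log2 fold changes for carminic acid followed GC content (Spearman 0.76, against 0.52 over 13903 genes), as a description of genes that share libraries. With the trends removed NDUFV1 and NDUFAF3 stood at 0.12 and 0.11, NDUFA5 at -0.04 and NDUFAF2 at -0.20, each with an edgeR adjusted p of 0.597 or more. The ND genes had a median of -0.41 with carminic acid and all 7 were negative, with sums of 4453, 3529 and 6773 CPM, against 5723, 7292 and 7443 CPM in control, so that library C lay inside the control range. The nuclear genes of complexes II to V had a median of 0.03, with 24 of 38 positive. Medians were -0.06 for the assembly factors of other names, -0.05 for the regulators and -0.03 for the other quinone routes.

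**Figure D5:**
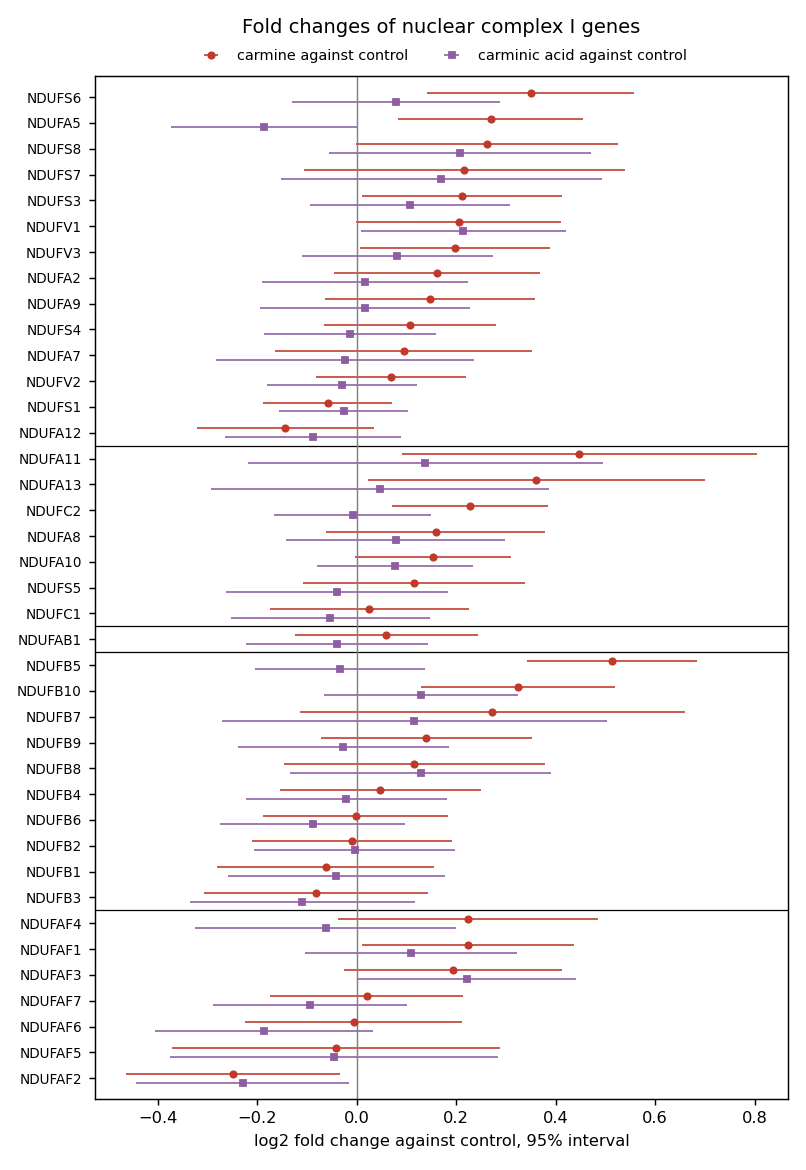
Log2 fold change of each tested member with its 95% interval, carmine against control as red circles and carminic acid against control as purple squares, with rows grouped as peripheral arm, proximal membrane arm, acyl carrier, distal membrane arm and assembly factors from top to bottom. The intervals are not adjusted for the number of genes; NDUFB5 (0.51 with carmine and -0.03 with carminic acid, or 0.46 and 0.07 with trends removed) shows the widest separation of the pair.

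Both comparisons use the same control libraries, so values of carmine and carminic acid were also set against each other directly, at 10 and 20 µM, where compound and concentration cannot be told apart. In this comparison NDUFB5, NDUFA5 and NDUFC2 were higher in all carmine libraries than in all carminic acid libraries. They are 3 of 39 tested members, a share near the 7.09% over all genes. NDUFB5 had 169.5, 186 and 207 CPM with carmine, against 122, 132 and 132 CPM with carminic acid (a log2 fold change of 0.55 with a 95% interval of 0.38 to 0.72, SE 0.0799, edgeR adjusted p = 0.0550). NDUFA5 had 105, 106 and 92.9 CPM with carmine, against 67.7, 72.6 and 81.1 CPM with carminic acid (0.46, SE 0.0873, interval 0.27 to 0.64, edgeR adjusted p = 0.185). NDUFC2 had 36.0, 36.6 and 37.6 CPM with carmine, against 31.1, 31.5 and 31.0 CPM with carminic acid (0.24, SE 0.0737, interval 0.08 to 0.39, edgeR adjusted p = 0.407). In each case the groups were separate, and the carminic acid values of NDUFB5 and NDUFC2 lay next to control.

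No member passed an edgeR adjusted p of 0.05 for carmine against carminic acid, and 1 gene did (0.00624% higher, 0.0% lower). DESeq2 and limma-voom each called 2 members, NDUFB5 and NDUFA5, among 77 (0.581%) and 13 (0.0812%) of the genes with an adjusted p. At an unadjusted p under 0.05, 6 members were higher and 0 lower, against 5.65% and 3.25% of all genes, and the 3 members without overlap, all higher, stand against 7.09% (0 were lower, against 6.01%). A share without overlap near this background is no result about the members. The median of the members was 0.10, with 31 of 39 positive (51.1% of all genes), and 0.045 without carmine library C (26 positive, against 49.0% of all genes), 0.17 without carmine library A and 0.044 with trends removed. Without library C NDUFB5 (0.48, edgeR adjusted p = 0.00268) and NDUFA5 (0.52, edgeR adjusted p = 0.00274) passed, among 685 genes (4.21%). With the trends removed NDUFB5 stood at 0.39 (edgeR adjusted p = 0.0976), NDUFA5 at 0.25 and NDUFC2 at 0.21. NDUFV1 and NDUFAF2 had intervals of -0.22 to 0.20 and -0.23 to 0.20 around -0.01 and -0.02, so differences of that size in either direction remain possible; both signs change when single libraries are left out. Complex II to V genes were positive for 37 of 38 (median 0.12), and all 7 ND genes were negative (median -0.45).

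The counts of some members may hold reads of other genes. Of the 41 members, 17 overlap another annotated gene. Among them are NDUFC2 and its read-through gene NDUFC2-KCTD14 (0 counts in all libraries), and NDUFA5 and ASB15 (0 counts). Other overlapping genes had more counts over all libraries than the member. These include PRKD3 (14699, against 10275 for NDUFAF7), NAA15 (19682, against 14395 for NDUFC1) and TP53INP1 (17897, against 5253 for NDUFAF6). Those counts are of whole genes, not of the shared stretch. Pseudogenes named after a member exist for 20 of them, 68 in all, of which 1 was in the files, with 17 counts over all libraries. The strand setting is not given in the sources used here.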

How the data were processed

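Raw counts per gene of 9 libraries (3 groups of 3) were deposited by the authors, with NCBI Gene IDs as names. The aligner was HISAT2, per the file headers; the submitters' processing notes list FastQC, HISAT, featureCounts and hg38 and give no version. Strand setting, kit, annotation release and the handling of multi-mapping reads were not given in the sources used here. Symbols, positions and promoters came from RefSeq tables of GRCh38.p14, and transcript lengths and GC content from GENCODE.

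The test was edgeR 4.0.16 under R 4.3.3: filterByExpr by group, TMM factors, 1 robust quasi-likelihood fit of all 9 libraries without covariate, and Benjamini-Hochberg adjustment over the 16017 tested genes of each contrast. The method was tested on simulated data. A fold change divided by the square root of its F statistic gave its SE, and common variation was 10.9% (biological coefficient). The mitochondrial chromosome took 0.974% to 2.51% of counts per library, and members 0.241% to 0.295%. Same-letter libraries did not deviate together (correlations -0.149 to 0.0952), so letters were not used as pairs. Within groups, pairs of libraries differed by a chi-square per degree of freedom of 9.51 or more, so none was counted as a copy.

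Members, lists and alternatives were chosen with earlier results of these data known. Values in every library are given for the 8, 4 and 3 members with the smallest p of the contrasts. Levels per length are given for the extremes of each structural group and for the core subunits. Of each other pathway list, the 2 genes with the smallest p for carmine against control were named. Of these, ND5, ND1 and UQCRQ are given in every library and the rest by log2 fold change. NDUFAF4, NDUFA12, NDUFAF6, DMAC1, the neighbouring genes and, for levels with other transcripts, NDUFA9, NDUFB6 and NDUFC1 were named after their values were seen. Alternatives were other scalings and filters, DESeq2 1.42.0, limma-voom (limma 3.58.1) with quality weights, the replicate letter as a block, the 6 libraries compared alone, an adjusted p under 0.01, removal of length and GC trends (natural splines with 5 degrees of freedom per library, 13903 genes), and leaving out each library.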

Additional observations from a re-analysis of the deposited data

How the results depend on the processing

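The count of members called for carmine against control, 0 in the edgeR fit reported, was 1 with RLE factors, library size alone, no filter, DESeq2 and limma-voom (NDUFB5 each time), 3 with trends removed and 2 with trends from the longest transcripts, and 0 to 1 with 1 library left out. For carmine against carminic acid it was 1 with RLE factors or library size alone, 2 with no filter, DESeq2 or limma-voom, and 0 to 2 with 1 library left out. NDUFB5 passed for carmine without carmine A (edgeR adjusted p = 0.0240), carmine C (0.00594), carminic acid B (0.0467) or carminic acid C (0.0410), and against carminic acid without carmine A (0.0104) or C. The cause was not tested. For carminic acid against control it stayed 0 in every alternative run, with medians of -0.026 to 0.021 with 1 library left out and 0.028 with trends from the longest transcripts.

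The ratio of subunit to assembly factor levels was 4.53 with the shortest transcripts. With the replicate block, 0 members were called in each contrast, with medians of 0.14 for carmine, -0.015 for carminic acid and 0.0999 between the compounds. The sign of the fold change was kept in all 19 alternatives for the members described one by one: for carmine NDUFB5, NDUFS6, NDUFB10, NDUFA5, NDUFC2, NDUFA11, NDUFA13 and NDUFAF2, for carminic acid NDUFV1, NDUFAF3, NDUFAF2 and NDUFA5, and between the compounds NDUFB5, NDUFA5 and NDUFC2. Of all 39 tested members, it changed in at least 1 alternative for 13 with carmine (NDUFS1 with trends removed and NDUFS7 without carmine C among them), 17 with carminic acid and 17 between the compounds.

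Over all genes, the calls for carmine (0) were 7 with RLE or library size, 19 without filter, 12 with 6 libraries, 75 with DESeq2, 43 with limma-voom, 164 and 110 with trends removed, and 36 without carmine C. For carminic acid (0) they were 2, 49, 8, 34, 3 and 2 for no filter, 6 libraries, DESeq2, limma-voom and both trend removals, and 21 without carmine C. Between the compounds (1) they were 2 with RLE or library size, 9 without filter, 0 with the replicate block, 77 with DESeq2, 13 with limma-voom, 19 and 11 with trends removed, and 685 without carmine C.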

Other observations

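Genes that lie within a few kilobases of a member were read beside it for carmine against control, as values chosen after they were seen. SEC31B, a vesicle coat gene 3868 bases from NDUFB8, had 6.92 ± 1.07 CPM in carmine libraries and 10.96 ± 1.28 in control libraries (a log2 fold change of -0.66, edgeR adjusted p = 0.118), while NDUFB8 had 133 ± 30.8 and 122 ± 6.18 CPM. RPS28, a ribosomal protein gene 121 bases from NDUFA7, had 419.7 ± 61.1 CPM in carmine libraries and 335 ± 32.9 in control libraries (0.32, edgeR adjusted p = 0.380), against a log2 fold change of 0.09 for NDUFA7. RPS2, 83 bases from NDUFB10, stood at 0.17 (edgeR adjusted p = 0.462), against 0.32 for NDUFB10. ERCC8, a DNA repair gene 135 bases from NDUFAF2, stood at -0.06 (edgeR adjusted p = 0.864), against -0.25 for NDUFAF2.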
